A study of Mus musculus with 20 samples.

Results

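Phf6 and the 6 genes of the PAF1 elongation complex (Paf1, Ctr9, Cdc73, Leo1, Rtf1 and Wdr61) were followed in AgRP neurons of fasted and fed mice, in conditional Phf6 knockouts (cKO) and wild-type littermates (WT). The 7 genes were taken by their symbols from a count table of 23129 genes, and all 7 were among the 13237 genes that passed the filter on low counts. AgRP neurons, named for agouti-related peptide, lie in the hypothalamus, release that peptide with neuropeptide Y, and promote eating when energy is short. The samples were 20 RNA libraries from C57BL/6 mice at postnatal day 25 to 30, each made from 1000 sorted tdTomato-positive cells of a hypothalamic punch of about 1 mm. There were 4 groups of 5 libraries. Fasted cKO and fed cKO mice were Phf6 flox/y; AgRP-Cre/+; Ai9/+, and fasted WT and fed WT littermates were AgRP-Cre/+; Ai9/+, so that Cre recombinase driven from Agrp and the Ai9 tdTomato reporter were present in all 4 groups. Fasted mice had lost access to food, but not water, at 5 pm on the previous day. Phf6 is X-linked, so the single floxed copy of a cKO male is its only copy, and Cre removes it in cells that express, or have expressed, Agrp. The labels do not say whether each library came from a separate mouse, and p-values here measure the spread between these samples, which may be technical.

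PHF6 is a nuclear protein with a pair of atypical PHD zinc fingers that binds chromatin, and mutations of the human gene cause Börjeson-Forssman-Lehmann syndrome, an intellectual disability syndrome in which obesity is common. The PAF1 complex travels with RNA polymerase II through genes, takes part in the release of paused polymerase and is needed for ubiquitination of histone H2B behind it. PHF6 was found to bind the PAF1 complex in developing cortical neurons, which is why the genes are described side by side.

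Of the 7 genes, 4 had a promoter entry in RefSeq on GRCm38.p6 (Paf1, Cdc73, Leo1 and Rtf1), and 3 of these are shown because their genes moved in opposite directions with fasting in WT (Rtf1 rose, Paf1 and Cdc73 fell). Each line gives the 250 bases before the RefSeq start, 5′ to 3′. For Paf1 that start (28392996) lies inside the gene as GENCODE M21 places it, so the last 45 bases of its window are within the GENCODE gene, while for Rtf1 and Cdc73 both annotations give the same start. Capitals mark matches on either strand to the CCAAT box (CCAAT) and to the GC box (GGGCGG).
Rtf1, chr2:119674818-119675067, plus strand: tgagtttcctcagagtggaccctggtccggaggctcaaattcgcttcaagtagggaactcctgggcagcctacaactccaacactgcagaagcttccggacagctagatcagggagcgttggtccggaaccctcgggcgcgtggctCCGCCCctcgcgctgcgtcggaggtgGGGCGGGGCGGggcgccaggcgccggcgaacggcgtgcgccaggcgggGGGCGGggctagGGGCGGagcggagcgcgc
Paf1, chr7:28392746-28392995, plus strand: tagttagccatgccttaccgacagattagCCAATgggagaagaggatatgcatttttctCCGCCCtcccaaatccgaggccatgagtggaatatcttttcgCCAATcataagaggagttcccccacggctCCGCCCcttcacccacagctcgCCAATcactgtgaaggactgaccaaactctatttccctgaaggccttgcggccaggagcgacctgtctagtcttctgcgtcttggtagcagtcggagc
Cdc73, chr1:143702894-143703143, minus strand: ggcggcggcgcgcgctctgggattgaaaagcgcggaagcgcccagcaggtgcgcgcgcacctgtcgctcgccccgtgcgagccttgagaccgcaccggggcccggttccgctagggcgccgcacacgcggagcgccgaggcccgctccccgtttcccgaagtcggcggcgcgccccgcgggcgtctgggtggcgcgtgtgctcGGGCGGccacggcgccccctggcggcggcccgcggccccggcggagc
The Rtf1 window held 5 GC boxes, of which 2 overlap by a base, and no CCAAT box. Paf1 had 3 CCAAT boxes and 2 GC boxes, and Cdc73 had 1 GC box in a window of 80.4% GC. Among all 32851 windows of this length, whose median GC content was 52.4%, a CCAAT box was present in 33.9% and a GC box in 32.7%. No match to the cAMP response element (TGACGTCA, in 1.55% of windows) or to the AP-1 site (TGANTCA, in 6.75%) was found in any of the 4, Leo1 included. These matches describe letters only and say nothing of which factors bind there.

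The libraries held 8494499 to 13573524 counts, with all fasted libraries at or below 10000278 and all fed libraries at or above 10604977. Levels are given as CPM, which are counts scaled to library size, here on libraries scaled by the TMM (trimmed mean of M values) method. The cells were checked by marker genes. The summed level of 10 AgRP neuron markers was 51130 to 69570 CPM in fasted cKO, 59770 to 85230 in fasted WT, 26950 to 31570 in fed cKO and 20860 to 22980 in fed WT. Most of this sum was Agrp and Npy, with means of 14930 and 53990 CPM in fasted WT and 4554 and 16670 CPM in fed WT. Their log2 rises with fasting were 1.71 and 1.70 in WT, and 1.16 and 0.95 in cKO. A higher sum therefore does not by itself show more AgRP neurons. The 6 microglial markers together did not exceed 1.74 CPM in any library and Tmem119 among them had no count, the 4 haemoglobin genes had no count, and 8 astrocyte markers summed to between 182 and 292 CPM. Oligodendrocyte markers, 6 genes, were lower in fasted libraries, with sums of 49.4 to 65.5 CPM in fasted cKO and 49.1 to 73.5 CPM in fasted WT, against 82.6 to 102 CPM in fed cKO and 90.5 to 104 CPM in fed WT. The 3 Pomc neuron markers summed to 440 to 531 CPM in replicates 1 and 2 and to 823 to 1097 CPM in replicates 3 to 5 of fasted cKO, against at most 470 CPM in any library of the other groups. The part of these cells in the results was not tested. Fasted replicates 1 and 2 stood apart from fasted replicates 3 to 5 in both genotypes: deviations of tested genes from the group mean correlated at -0.353 in fasted cKO and -0.441 in fasted WT between the sets, and at -0.0913 and 0.0433 within them, where the same sets of fed libraries gave -0.252 to -0.248 for each. The labels name no batch. Where a call named below was lost or turned with either set alone, both sets' values are given. In these bulk samples, fewer cells of a type and less RNA per cell cannot be told apart.

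Phf6 is the deleted gene and was the check on the labels (chromosome X, 52912266 to 52956943, plus strand, GRCm38). In fasted cKO the 5 libraries had 55.9, 53.6, 71.3, 62.6 and 62.4 CPM, against 142, 119, 116, 129 and 135 CPM in fasted WT. In fed cKO they had 76.3, 68.5, 68.6, 75.3 and 65.0 CPM, against 271, 264, 277, 292 and 278 CPM in fed WT. Every cKO library was below every WT library of either feeding state, and the fed and fasted WT libraries did not overlap each other. The cKO groups overlapped. Within each comparison of genotype, groups that do not overlap in CPM were seen for 8.96% of all tested genes in fasted mice and 14.5% in fed mice.

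In fasted mice cKO kept 47.7% of the Phf6 level of WT, and in fed mice 25.6%. In log2 terms the difference was -1.07 ± 0.074 (SE) in fasted mice (edgeR quasi-likelihood test, Benjamini-Hochberg adjusted p = 2.43e-10), and Phf6 had the smallest p of all 13237 genes there. In fed mice it was -1.97 ± 0.072 (edgeR adjusted p = 4.02e-18), the 4th smallest p. The difference, cKO minus WT, was -67 CPM in fasted mice and -206 CPM in fed mice. Genes called at an adjusted p under 0.05 made up 20.3% of all tested genes in fasted mice and 9.68% in fed mice. The sources used here do not name the exons between the loxP sites, and counts over the whole gene do not tell an intact transcript from a shortened one.

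Fasting lowered Phf6 in WT neurons that carry the intact gene. Fasted WT neurons had 46.4% of the Phf6 of fed WT neurons, a log2 difference of -1.11 ± 0.070 (edgeR adjusted p = 1.42e-13). Genes called in that comparison made up 60.9% of all tested genes, 31.3% in the falling direction. In cKO the difference was -0.21 ± 0.074 (edgeR adjusted p = 0.0199), and fasted cKO had 86.5% of the level of fed cKO. Genes called there were 53.1% of all tested genes. The interaction, the fasting effect in cKO minus that in WT, was 0.90 ± 0.102 (edgeR adjusted p = 6.4e-07), with 17.3% of all genes called. So the 4 groups ran from fed WT down through fasted WT and fed cKO to fasted cKO, and fed cKO was below fasted WT by 0.86 ± 0.072 (edgeR adjusted p = 5.67e-11). The fasting difference in cKO did not pass with fasted replicates 3 to 5 alone (-0.11, edgeR adjusted p = 0.196), nor without fed cKO replicate 1 or 4 or fasted cKO replicate 1 or 2 (edgeR adjusted p = 0.0541 to 0.0736), while replicates 1 and 2 alone gave -0.37 (edgeR adjusted p = 0.000301).

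**Figure D1:**
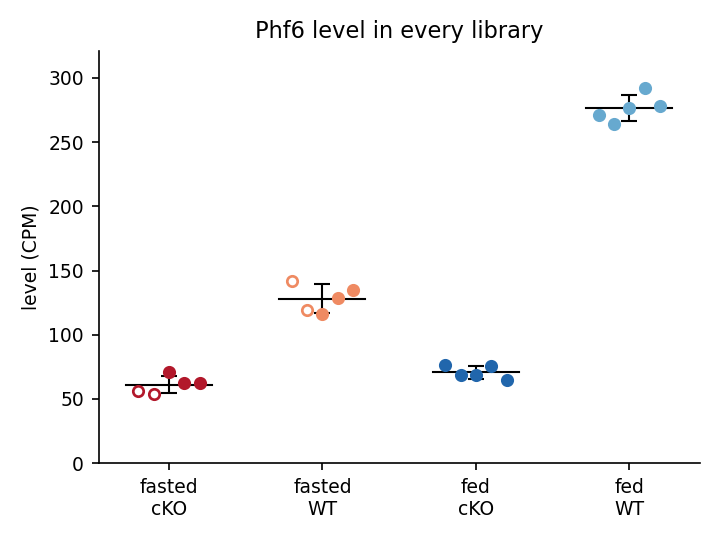
Phf6 level (CPM, linear axis from 0) in each of the 20 libraries by group, with mean and SD bars; open circles are fasted replicates 1 and 2. The 5 fed WT libraries sit at 264 to 292 CPM, the 5 fasted WT libraries at 116 to 142, and both cKO groups at or below 76.3.

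The nearest tested genes on chromosome X were read as neighbours of the deleted one. Hprt, which makes a purine salvage enzyme and starts 31.2 kb after the end of Phf6, had 1444 ± 97.8 CPM in fasted cKO and 1485 ± 91.8 in fasted WT (mean ± SD, n = 5), and 908 ± 26.7 in fed cKO and 932 ± 37.0 in fed WT. Its cKO-minus-WT difference was -0.04 ± 0.051 in fasted mice (edgeR adjusted p = 0.619) and -0.04 ± 0.051 in fed mice (edgeR adjusted p = 0.723). None of the 6 nearest tested genes (Gpc4, Gpc3, Ccdc160, Hprt, Fam122b and Mospd1) passed in fed mice. Of all tested genes 9.68% passed there and 20.3% in fasted mice, so the calls among 6 genes are no result about the neighbours. In fasted mice Ccdc160, 112.8 kb before Phf6, was higher in cKO by 0.47 ± 0.079 (edgeR adjusted p = 0.000131), with 72.3 ± 6.58 CPM in fasted cKO and 52.3 ± 5.47 in fasted WT, and Gpc3, a heparan sulfate proteoglycan gene, was lower by 0.83 ± 0.183 (edgeR adjusted p = 0.00188). The Gpc3 value was -0.40 with fasted replicates 1 and 2 alone (edgeR adjusted p = 0.329) and -1.07 with replicates 3 to 5 alone (edgeR adjusted p = 0.000102). Ccdc160 was also lowered by fasting, by 0.86 ± 0.077 in WT (edgeR adjusted p = 1.42e-10) and by 0.30 ± 0.076 in cKO (edgeR adjusted p = 0.00151).

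The PAF1 complex genes changed with fasting, but not together. In cKO 3 of 6 were called, all higher (edgeR adjusted p under 0.05, as were 53.1% of all tested genes, 26% higher and 27% lower). In WT 5 of 6 were called, 2 higher and 3 lower (60.9% of all tested genes, 29.6% higher and 31.3% lower). The median log2 difference over the 6 genes was 0.16 in cKO and -0.06 in WT, against -0.03 in each for all tested genes. Read against those shares of all genes, the counts are no result about the complex. Groups did not overlap in CPM for 3 of 6 genes in cKO (39.6% of all tested genes) and for 3 of 6 in WT (45%). The direction differed by subunit: Wdr61 and Rtf1 rose in both genotypes, Leo1 rose in cKO, and Ctr9, Paf1 and Cdc73 fell in WT.

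Wdr61 is a WD-repeat subunit that the PAF1 complex shares with the Ski complex of RNA decay (chromosome 9, 54714735 to 54734519, minus strand). It had 200, 195, 179, 161 and 185 CPM in fasted cKO, against 98.6, 97.6, 96.8, 99.7 and 96.3 CPM in fed cKO. In fasted WT the values were 189, 200, 150, 162 and 157 CPM, against 102, 103, 97.4, 102 and 109 CPM in fed WT. Every fasted library was above every fed library. The log2 rise was 0.91 ± 0.071 in cKO (edgeR adjusted p = 2.11e-11) and 0.74 ± 0.071 in WT (edgeR adjusted p = 5.64e-10). Its reads are uncertain, since 33.9% of its exon bases are shared with Dnaja4, which runs in the other direction, and the kit does not mark strand. Dnaja4, a heat shock cochaperone gene, had 33.0 ± 5.44 CPM in fasted cKO and 39.1 ± 2.11 in fed cKO, and 30.9 ± 5.6 in fasted WT and 47.0 ± 2.65 in fed WT (mean ± SD, n = 5). The Dnaja4 difference with fasting was -0.24 in cKO (edgeR adjusted p = 0.0639) and -0.60 in WT (edgeR adjusted p = 2.67e-05). How reads in the shared bases were assigned is not given in the sources used here, and their part in the Wdr61 result was not tested.

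Rtf1, the subunit that helps direct H2B ubiquitination (chromosome 2, 119675068 to 119735407, plus strand), had 82.1, 83.9, 65.9, 71.8 and 72.9 CPM in fasted cKO, against 55.9, 58.2, 63.5, 65.7 and 62.9 CPM in fed cKO. In fasted WT it had 74.0, 69.6, 70.8, 73.5 and 68.4 CPM, against 60.9, 59.9, 62.1, 57.0 and 60.0 CPM in fed WT. The fasted libraries all lay above the fed ones within each genotype, in cKO by a narrow margin of 65.9 against 65.7 CPM. The rise was 0.30 ± 0.070 in cKO (edgeR adjusted p = 0.000691) and 0.25 ± 0.070 in WT (edgeR adjusted p = 0.00305).

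Leo1, the subunit that pairs with Paf1 inside the complex (chromosome 9, 75441524 to 75466432, plus strand), had 116, 113, 122, 128 and 142 CPM in fasted cKO, against 104, 101, 98.1, 86.2 and 97.6 CPM in fed cKO. The rise there was 0.35 ± 0.107 (edgeR adjusted p = 0.00706), and no fasted library reached down to a fed one. In fasted WT the libraries had 81.2, 86.3, 125, 143 and 128 CPM, against 104, 106, 110, 106 and 110 CPM in fed WT. These groups overlapped, and the difference was 0.08 ± 0.106 (edgeR adjusted p = 0.553). Replicates 1 and 2 of fasted WT were below all fed WT libraries and replicates 3 to 5 above them. Taken alone, replicates 1 and 2 gave a fall of 0.37 ± 0.073 on the log2 scale (edgeR adjusted p = 4.88e-05), and replicates 3 to 5 a rise of 0.31 ± 0.063 (edgeR adjusted p = 7.62e-05), so the WT direction for Leo1 depended on which fasted libraries were used. The AgRP marker sum also separated these sets, at 84330 to 85230 CPM in replicates 1 and 2 and 59770 to 61200 CPM in replicates 3 to 5 of fasted WT. That sum was mostly Agrp and Npy, and its part in the result was not tested.

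Ctr9, the large TPR-repeat scaffold of the complex (chromosome 7, 111028951 to 111056377, plus strand), had 63.0, 54.9, 48.8, 53.9 and 49.1 CPM in fasted cKO, against 51.8, 55.0, 54.1, 57.1 and 57.9 CPM in fed cKO. In fasted WT it had 57.3, 45.9, 42.4, 50.0 and 52.7 CPM, against 70.6, 63.2, 65.2, 69.3 and 72.9 CPM in fed WT. All fed WT libraries lay above all libraries of fasted WT and of fed cKO, and the cKO groups overlapped. Fasting lowered Ctr9 in WT by 0.46 ± 0.082 on the log2 scale (edgeR adjusted p = 2.13e-05), and in cKO the difference was -0.03 ± 0.082 (edgeR adjusted p = 0.754). The interaction was 0.42 ± 0.116 (edgeR adjusted p = 0.0109). Ctr9 was 1 of 6 subunits to pass there, a share near the 17.3% of all tested genes. With fasted replicates 1 and 2 alone the interaction also passed for Leo1 (0.60, edgeR adjusted p = 6.54e-05) and Paf1 (0.43, edgeR adjusted p = 0.000766), which with replicates 3 to 5 alone gave 0.12 and 0.10 (edgeR adjusted p = 0.346 and 0.386). With replicates 3 to 5 alone it passed for Wdr61 (0.23, edgeR adjusted p = 0.026), which with replicates 1 and 2 alone gave 0.11 (edgeR adjusted p = 0.414). In fed mice Ctr9 was lower in cKO by 0.31 ± 0.080 (edgeR adjusted p = 0.0137). All of these Ctr9 calls held under each alternative tried.

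Paf1, the subunit that gives the complex its name (chromosome 7, 28392951 to 28399388, plus strand), had 146, 148, 131, 143 and 157 CPM in fasted cKO, against 134, 150, 145, 140 and 144 CPM in fed cKO. In fasted WT it had 114, 108, 124, 141 and 140 CPM, against 144, 141, 145, 140 and 148 CPM in fed WT. The WT groups overlapped at their edges, with fasted replicates 4 and 5 reaching the fed range. The fall with fasting in WT was 0.19 ± 0.066 on the log2 scale (edgeR adjusted p = 0.0132), and in cKO the difference was 0.02 ± 0.066 (edgeR adjusted p = 0.787). That fall did not pass with fasted replicates 3 to 5 alone (-0.09, edgeR adjusted p = 0.193, against -0.38 and 3.57e-06 with replicates 1 and 2 alone), with GC and length offsets (-0.10, edgeR adjusted p = 0.153) or without fasted WT replicate 2 (edgeR adjusted p = 0.0522). Of the genotype comparisons, Paf1 was higher in fasted cKO than in fasted WT by 0.21 ± 0.067 (edgeR adjusted p = 0.0264), a call lost with only those groups in the fit (edgeR adjusted p = 0.138), with replicates 3 to 5 alone (0.09, edgeR adjusted p = 0.343, against 0.41 and 0.000321 with replicates 1 and 2 alone), or without fasted cKO replicate 5 or fasted WT replicate 1, 2 or 3 (edgeR adjusted p = 0.0553 to 0.0761).

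Cdc73 makes parafibromin, a tumor suppressor protein of the complex (chromosome 1, 143598800 to 143702893, minus strand). It had 34.4, 45.8, 32.2, 32.0 and 35.7 CPM in fasted cKO, against 39.2, 33.5, 38.5, 42.0 and 31.3 CPM in fed cKO. In fasted WT it had 35.4, 34.9, 35.4, 38.4 and 42.8 CPM, against 36.7, 45.6, 42.8, 51.7 and 47.1 CPM in fed WT. The groups overlapped in both genotypes. The fall in WT was 0.26 ± 0.106 on the log2 scale (edgeR adjusted p = 0.0367) and did not pass with DESeq2 size factors (edgeR adjusted p = 0.0548), with DESeq2 (adjusted p = 0.051) or with fasted replicates 3 to 5 alone (-0.20, edgeR adjusted p = 0.0952, against -0.36 and 0.0166 with replicates 1 and 2 alone), nor without fasted WT replicate 1, 2 or 3 or fed WT replicate 2, 4 or 5 (edgeR adjusted p = 0.0609 to 0.117). In cKO the fasting difference was -0.04 ± 0.108 (edgeR adjusted p = 0.807).

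**Figure D2:**
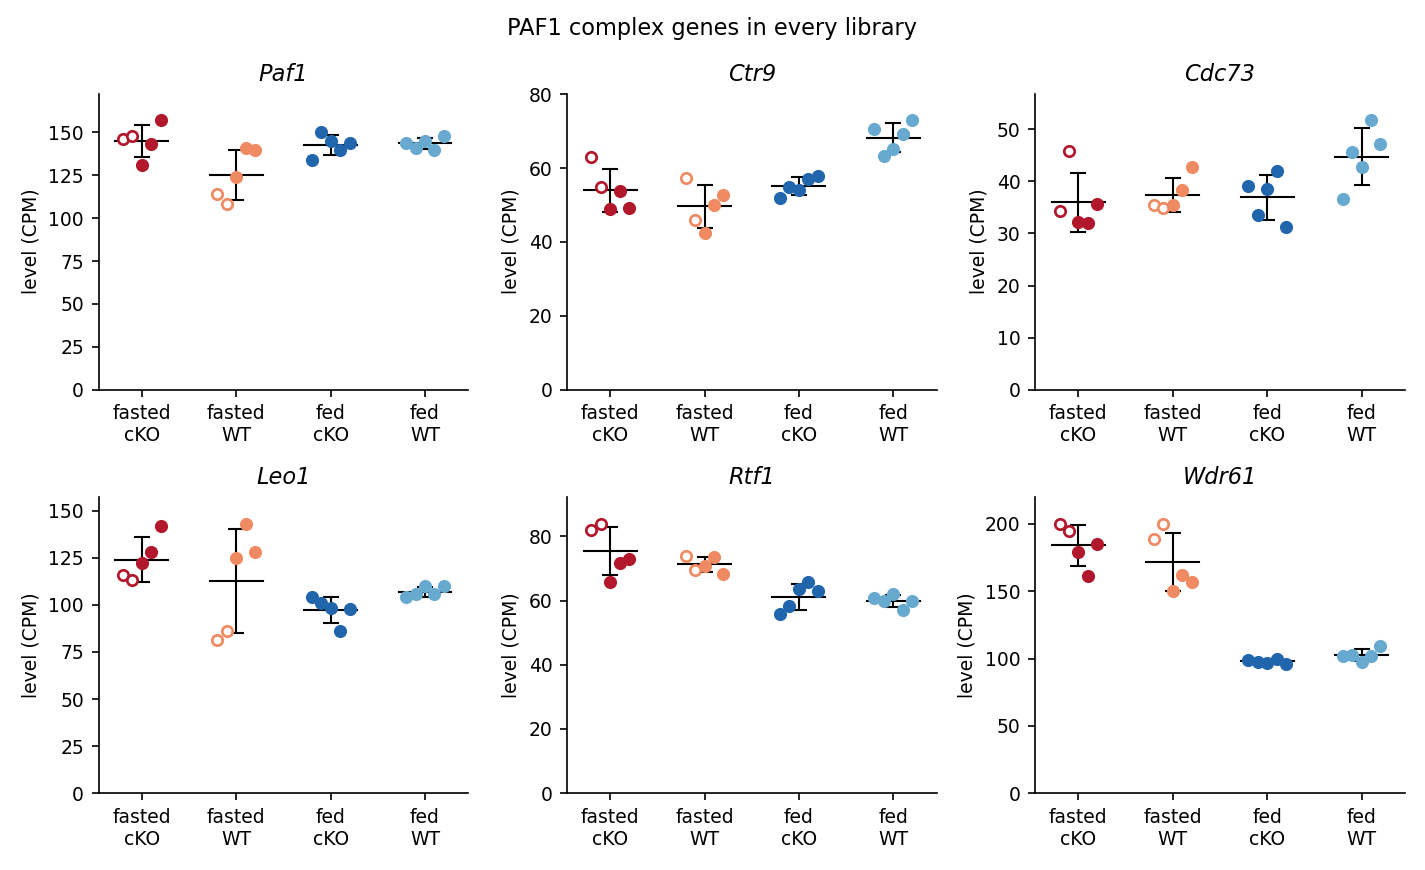
Levels of the 6 PAF1 complex genes (CPM, linear axes from 0, 1 panel each) in the 20 libraries by group, with mean and SD bars; open circles are fasted replicates 1 and 2. Wdr61 and Rtf1 are higher in all fasted libraries than in the fed ones of the same genotype, Ctr9 is highest in fed WT, and Leo1 of fasted WT splits by replicate set.

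Between genotypes 1 of 6 members of the complex passed the test in each feeding state, against 20.3% of all tested genes in fasted and 9.68% in fed mice. Read against those shares, the counts are no result about the complex. In fasted mice 1 of 6 genes was called, Paf1, higher in cKO (11.5% of all tested genes were higher and 8.84% lower). In fed mice 1 of 6 was called, Ctr9, lower in cKO (5.87% of all genes were higher and 3.81% lower). Leo1 differed by 0.14 ± 0.107 in fasted mice (edgeR adjusted p = 0.394) and by -0.13 ± 0.106 in fed mice (edgeR adjusted p = 0.478). Wdr61 differed by 0.10 ± 0.070 in fasted mice (edgeR adjusted p = 0.322) and by -0.07 ± 0.071 in fed mice (edgeR adjusted p = 0.607). Rtf1 differed by 0.08 ± 0.070 in fasted and 0.03 ± 0.069 in fed mice (edgeR adjusted p = 0.464 and 0.841). Cdc73 differed by -0.28 ± 0.104 in fed mice (edgeR adjusted p = 0.0919), and passed with only the fed groups in the fit (edgeR adjusted p = 0.0139), as did Leo1 (edgeR adjusted p = 0.0402), and with fasted replicates 1 and 2 or 3 to 5 alone in the fit (edgeR adjusted p = 0.0271 and 0.0185). A p above the threshold does not show that these genes were the same in both genotypes. The Leo1 value for fasted mice was 0.46 (edgeR adjusted p = 0.000467) with fasted replicates 1 and 2 alone and -0.02 (edgeR adjusted p = 0.873) with replicates 3 to 5 alone.

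Comparisons that cross genotype and feeding were also made. Between fed cKO and fasted WT, 3 of 6 PAF1 genes were called (57.2% of all tested genes, 29.2% higher and 28% lower): Paf1 was higher by 0.19 ± 0.066 (edgeR adjusted p = 0.0186), and Rtf1 and Wdr61 were lower by 0.22 ± 0.070 and 0.81 ± 0.071 (edgeR adjusted p = 0.00878 and 1.41e-10). The Paf1 call did not pass with only those groups in the fit, with replicates 3 to 5 alone, with GC and length offsets, or without fasted WT replicate 1 or 2 (edgeR adjusted p = 0.0552 to 0.282); the sets gave 0.37 for replicates 1 and 2 (edgeR adjusted p = 7.16e-06) and 0.08 for replicates 3 to 5. Leo1 was not called there, but was higher by 0.23 with replicates 1 and 2 alone (edgeR adjusted p = 0.00763) and lower by 0.45 with replicates 3 to 5 alone (edgeR adjusted p = 1.69e-07). Groups did not overlap for 2 of 6 genes, Rtf1 and Wdr61 (39.6% of all tested genes). Between fasted cKO and fed WT, which differ in both factors, 4 of 6 were called (57.4% of all tested genes, 28% higher and 29.4% lower): Rtf1 and Wdr61 were higher by 0.33 ± 0.070 and 0.84 ± 0.071, and Ctr9 and Cdc73 lower by 0.34 ± 0.082 and 0.31 ± 0.107 (edgeR adjusted p = 0.000219, 5.53e-11, 0.000809 and 0.0134). The Cdc73 call did not pass with fasted replicates 1 and 2 alone (-0.16, edgeR adjusted p = 0.295, against -0.43 and 0.000841 with replicates 3 to 5 alone) or without fed WT replicate 4 (edgeR adjusted p = 0.0512). Groups did not overlap for 4 of 6 genes there (44.3% of all tested genes), with Leo1, Rtf1 and Wdr61 all higher and Ctr9 all lower. In the interaction, 1 of 6 passed (8.87% of all genes positive and 8.44% negative), which was Ctr9.

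**Figure D3:**
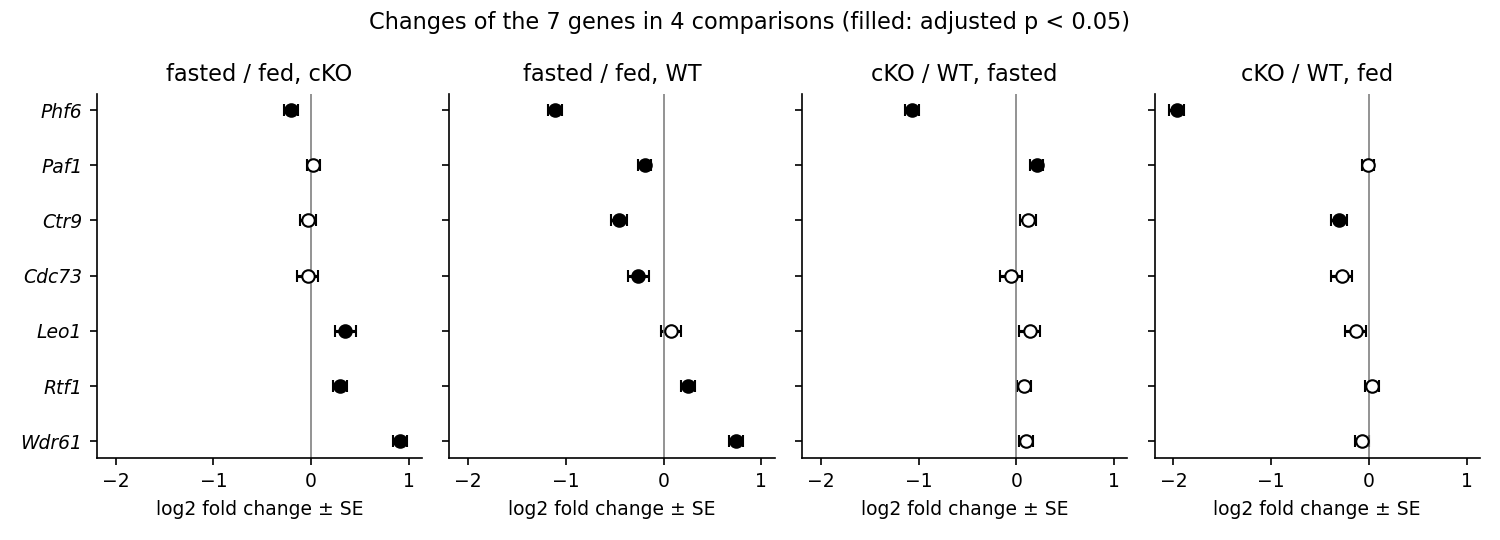
Log2 differences (fasted over fed, or cKO over WT) ± SE from the edgeR fit for the 7 genes in 4 comparisons, with a line at 0; filled points passed an adjusted p under 0.05. Phf6 is lower in all 4 comparisons, at -1.97 for cKO against WT in fed mice, and Wdr61 reaches 0.91 and 0.74 with fasting.

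The levels of several members in the fasted sets are given here as a description. How many of all tested genes had sets without overlap is not given here, so these separations are no result about the members. In fasted cKO, replicates 1 and 2 averaged 54.8 CPM of Phf6 and replicates 3 to 5 averaged 65.5 CPM, without overlap, while in fasted WT the averages were 130.5 and 127 CPM and the sets overlapped. Wdr61 was higher in replicates 1 and 2 in both genotypes, at 198 and 175 CPM in fasted cKO and at 194 and 156 CPM in fasted WT. Rtf1 in fasted cKO averaged 83.0 CPM in replicates 1 and 2 and 70.2 CPM in replicates 3 to 5, and Ctr9 there 59.0 and 50.6 CPM. Raw counts behind the levels ran from 270 for Cdc73 in a fasted WT library to 3926 for Phf6 in a fed WT library, so that no member sat near the limit that a count of 0 allows.

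Compared per kilobase of annotated exon, the complex genes stood in a wide range. In fed WT, Paf1 was at 41.8 ± 0.95 CPM per kilobase (mean ± SD, n = 5), Phf6 at 39.8 ± 1.47, Leo1 at 22.1 ± 0.53, Wdr61 at 22.0 ± 0.89, Rtf1 at 10.5 ± 0.33, Ctr9 at 8.53 ± 0.50 and Cdc73 at 2.54 ± 0.32. In fasted cKO Phf6 was at 8.81 ± 0.99 CPM per kilobase and stood between Rtf1 (13.2 ± 1.31) and Ctr9 (6.74 ± 0.72). Leo1 and Wdr61 were within their SDs of each other in fed WT. Annotated length includes exons that these cells may not use, and with the longest transcript as length Paf1 was first and Cdc73 last of the 7 in all 4 groups.

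The genes around the complex in transcription elongation were counted in 8 lists of 87 names, of which 82 were tested. With fasting 37 rose and 15 fell in cKO, and 33 rose and 22 fell in WT (63.4% and 67.1% called, against 53.1% and 60.9% of all tested genes). Of all tested genes, 26% rose and 27% fell in cKO, and 29.6% rose and 31.3% fell in WT. Of RNA polymerase II subunits, 10 of 13 rose and 2 fell in cKO, and 9 rose and 3 fell in WT, with median log2 differences of 0.51 and 0.52, against -0.03 for all tested genes in each. Polr2d had 91.6 ± 8.75 CPM in fasted cKO and 57.2 ± 1.55 in fed cKO, and 99.2 ± 4.59 in fasted WT and 59.7 ± 4.18 in fed WT. Its rise was 0.68 ± 0.069 in cKO and 0.73 ± 0.069 in WT (edgeR adjusted p = 3.26e-09 and 3.84e-10). Of 10 kinases and phosphatases that act on the polymerase tail, 7 rose and none fell in cKO, and 6 rose and 1 fell in WT. Ssu72, a phosphatase of that tail, had 409 ± 24.7 CPM in fasted cKO and 192 ± 8.11 in fed cKO, and 430 ± 70.2 in fasted WT and 183 ± 1.84 in fed WT, but 15.1% of its exon bases overlap a gene on the other strand. Cdk7 and Mnat1, of the kinase of TFIIH, rose by 0.60 ± 0.075 and 0.64 ± 0.084 in cKO and by 0.51 ± 0.074 and 1.02 ± 0.084 in WT (edgeR adjusted p at most 8.77e-07).

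Ell2 and Eaf2 rose in both genotypes. Ell2, a polymerase elongation factor of the super elongation complex, had 98.1 ± 22.0 CPM in fasted cKO and 24.8 ± 4.11 in fed cKO, and 88.6 ± 18.4 in fasted WT and 15.5 ± 2.86 in fed WT, rises of 1.98 ± 0.151 and 2.51 ± 0.157 (edgeR adjusted p = 1.47e-11 and 1.04e-13). Its partner Eaf2 had 7.10 ± 1.25 CPM in fasted cKO and 1.07 ± 0.39 in fed cKO, and 13.4 ± 5.25 in fasted WT and 0.635 ± 0.304 in fed WT, rises of 2.72 ± 0.303 and 4.35 ± 0.318 (edgeR adjusted p = 1.70e-08 and 2.54e-12). The Eaf2 rise differed between genotypes, with an interaction of -1.62 ± 0.452 (edgeR adjusted p = 0.0123). Fed WT libraries had only 0.312 to 0.967 CPM of Eaf2, close to the 0.23 to 0.261 CPM that a count of 0 allows in them. The WT rise of Eaf2 rests on these low levels, and its interaction does so in part. In fasted mice the cKO-minus-WT difference of Eaf2 was -0.91 (edgeR adjusted p = 0.0117). It was -1.15 with fasted replicates 1 and 2 alone (edgeR adjusted p = 0.0349) and -0.66 with replicates 3 to 5 alone (edgeR adjusted p = 0.134). In fed mice its cKO-minus-WT difference of 0.71 did not pass (edgeR adjusted p = 0.252). Of the 12 tested genes in that list, 7 rose and 3 fell in cKO (26% and 27% of all tested genes), and 6 rose and 2 fell in WT (29.6% and 31.3%). Among 14 genes of pausing and its release 4 rose and 4 fell in each genotype (57.1% called, against 53.1% of all tested genes in cKO and 60.9% in WT). The pausing factors Nelfb and Nelfcd fell in both (by 0.64 ± 0.082 and 0.99 ± 0.132 in cKO, edgeR adjusted p = 2.15e-07 and 3.49e-07, and by 0.55 ± 0.083 and 0.89 ± 0.130 in WT, edgeR adjusted p = 1.76e-06 and 1.02e-06). Supt4a, of the pausing factor DSIF, rose by 0.33 ± 0.062 in cKO and by 0.65 ± 0.062 in WT (edgeR adjusted p = 5.1e-05 and 6.13e-10). Of 6 histone chaperones and remodellers 2 rose and 2 fell in cKO, and 1 rose and 2 fell in WT (66.7% and 50% called, against 53.1% and 60.9%). Chd1 was higher in both. Ssrp1, of the histone chaperone FACT, was lower by 0.50 ± 0.114 in cKO (edgeR adjusted p = 0.000539). In fasted WT it had 49.0 and 61.7 CPM in replicates 1 and 2 and 77.3, 94.4 and 81.4 CPM in replicates 3 to 5, against 85.0 to 94.9 CPM in fed WT. The WT fall of 0.30 ± 0.113 (edgeR adjusted p = 0.0241) was 0.71 with replicates 1 and 2 alone (edgeR adjusted p = 4.69e-08), and replicates 3 to 5 alone gave -0.08 (edgeR adjusted p = 0.379). Of the Ski complex, which shares Wdr61, 2 genes were tested. Skiv2l was lower with fasting in cKO by 0.41 ± 0.157 (edgeR adjusted p = 0.0286), and Ttc37 in WT by 0.26 ± 0.106 (edgeR adjusted p = 0.0354). With replicates 3 to 5 alone both passed (-0.51 and -0.32, edgeR adjusted p = 0.00894 and 0.0149), and with replicates 1 and 2 alone neither did (-0.27 and -0.19, edgeR adjusted p = 0.201 and 0.177).

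Genes of H2B ubiquitination and of the methylation that follows it moved in both directions, with 3 higher and 1 lower of 13 in cKO and 4 higher and 2 lower in WT (30.8% and 46.2%, against 53.1% and 60.9% of all tested genes). Ube2b, an H2B ubiquitin-conjugating enzyme, had 614 ± 40.8 CPM in fasted cKO and 478 ± 17.2 in fed cKO, and 610 ± 32.4 in fasted WT and 464 ± 20.3 in fed WT, rises of 0.36 ± 0.052 and 0.40 ± 0.052 (edgeR adjusted p = 1.26e-06 and 1.93e-07). Its paralog Ube2a had 81.4 ± 12.9 CPM in fasted cKO and 59.2 ± 9.84 in fasted WT, and 54.8 ± 1.97 in fed cKO and 65.6 ± 4.72 in fed WT. The Ube2a response depended on genotype, with an interaction of 0.72 ± 0.139 (edgeR adjusted p = 0.000591). In fasted mice Ube2a was higher in cKO by 0.46 ± 0.099 (edgeR adjusted p = 0.00153), while Setd1a and Rnf40 were lower. Setd1a, a histone H3 lysine methyltransferase gene, had 14.9 ± 1.14 CPM in fasted cKO and 22.9 ± 2.63 in fasted WT, and 14.5 ± 0.957 in fed cKO and 13.3 ± 1.97 in fed WT. Its cKO-minus-WT difference in fasted mice was -0.62 ± 0.118 (edgeR adjusted p = 0.000538) and its interaction was -0.74 ± 0.165 (edgeR adjusted p = 0.00249). Rnf40, an H2B ubiquitin ligase gene, had 15.8 ± 1.01 CPM in fasted cKO and 21.8 ± 5.18 in fasted WT, and 14.9 ± 1.74 in fed cKO and 13.1 ± 1.58 in fed WT. Its difference in fasted mice was -0.47 ± 0.144 (edgeR adjusted p = 0.0216), with an interaction of -0.65 ± 0.201 (edgeR adjusted p = 0.0245). With fasted replicates 1 and 2 alone neither passed in fasted mice (Setd1a -0.49 and Rnf40 -0.15, edgeR adjusted p = 0.0907 and 0.703) or in the interaction (edgeR adjusted p = 0.0629 and 0.386). With replicates 3 to 5 alone both did, in fasted mice (-0.70 and -0.62, edgeR adjusted p = 0.000708 and 0.00152) and in the interaction (edgeR adjusted p = 0.00156 and 0.00124). The reads of both genes are uncertain. Of the exon bases of Setd1a, 52.3% are shared with other genes, on the same and on the other strand. For Rnf40, 13.6% are shared with genes on the other strand. The part of such reads in these results was not tested. Rnf20, the partner of Rnf40 in that ligase, was higher in fed cKO by 0.23 ± 0.066 (edgeR adjusted p = 0.0251).

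Between genotypes, 13 of the 82 list genes were higher and 8 lower in cKO in fasted mice (25.6% called, against 20.3% of all tested genes), and 6 were higher and 3 lower in fed mice (11%, against 9.68%). Nuclear partners and PHD-finger relatives of Phf6 had the largest share called between genotypes of the 8 lists. In fasted mice 7 of 12 were higher in cKO and none lower (58.3%, against 20.3% of all tested genes), and in fed mice 2 were higher and 3 lower (41.7%, against 9.68%). With fasted replicates 1 and 2 alone 6 of the 12 were higher in fasted cKO (50%). Of all tested genes 12.1% were called there in either direction, with 1014 of the 1682 called genes higher. With replicates 3 to 5 alone 4 of the 12 were higher (33.3%). Of all tested genes 26.8% were called there in either direction, with 1933 of the 3640 called genes higher. The pausing list had 57.1% there. These lists were chosen with earlier results of the same data known, and this count is a description. The histone deacetylase gene Hdac1 had 39.0 ± 4.63 CPM in fasted cKO and 29.4 ± 2.42 in fasted WT, and 52.1 ± 2.82 in fed cKO and 60.2 ± 3.39 in fed WT (mean ± SD, n = 5). Hdac2 had 182 ± 8.26 CPM in fasted cKO and 135 ± 26.9 in fasted WT, and 202 ± 5.57 in fed cKO and 248 ± 14.2 in fed WT. The cKO-minus-WT differences in fasted mice were 0.41 ± 0.087 for Hdac1 and 0.43 ± 0.085 for Hdac2 (edgeR adjusted p = 0.00152 and 0.00068). For Hdac2 it was 0.21 with fasted replicates 1 and 2 alone (edgeR adjusted p = 0.0585) and 0.62 with replicates 3 to 5 alone (edgeR adjusted p = 3.42e-10). In fed mice the direction was opposite, at -0.21 for Hdac1 and -0.30 for Hdac2 (edgeR adjusted p = 0.102 and 0.0186). Hdac1 passed there with either fasted set alone in the fit (edgeR adjusted p = 0.0321 and 0.0178). The interactions were 0.61 and 0.73 (edgeR adjusted p = 0.000599 and 8.29e-05). Ubtf, the RNA polymerase I factor that binds ribosomal DNA, was lower in cKO in fed mice by 0.69 ± 0.101 (edgeR adjusted p = 2.22e-05), with 26.8 ± 3.12 CPM in fed cKO and 43.3 ± 2.49 in fed WT. Its interaction was 1.02 ± 0.147 (edgeR adjusted p = 1.87e-05), and 6 of the 12 partners and relatives had a positive interaction past the threshold and none a negative one (50%, against 17.3% of all tested genes). With fasted replicates 3 to 5 alone, Chd3 and Rbbp7 passed with a negative interaction (-0.40 and -0.16, edgeR adjusted p = 0.0146 and 0.0235). Phf20 did not pass there (0.23, edgeR adjusted p = 0.0748), and 3603 of all tested genes were called, against 2291 with all libraries. Replicates 1 and 2 alone gave -0.07, 0.01 and 0.64 for Chd3, Rbbp7 and Phf20 (edgeR adjusted p = 0.824, 0.947 and 6.85e-05).

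**Figure D4:**
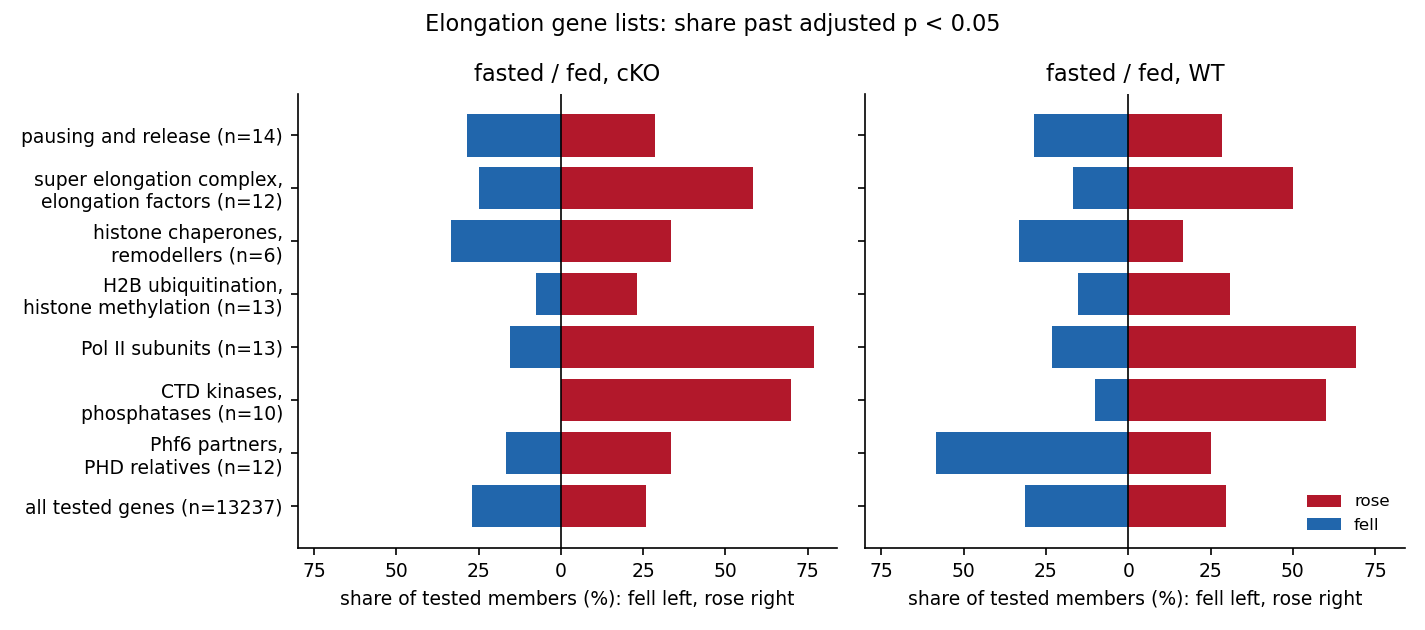
Share (%) of the tested members of 7 lists, and of all tested genes in the bottom bars, called lower (blue, left) and higher (red, right) with fasting, in cKO and in WT; the Ski list of 2 tested genes is left out. RNA polymerase II subunits and the tail kinases lean to the right in both genotypes, while pausing factors are even.

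Over the 20 libraries, the genes whose log2 CPM followed Phf6 most closely were Ccnd2, a cyclin gene (Pearson r = 0.929), Fstl1 (0.90), Rhoc (0.892), Nfic (0.885) and the noncoding RNA gene Tbx3os2 (0.874). The most opposed were Ier3 (-0.922), Hcfc1r1 (-0.918), Snx1 (-0.918), Ppfibp2 (-0.911) and Sgce (-0.91). These are descriptions over libraries that share groups, and Spearman's rho kept 2 of each 5. Ccnd2 had 11.2 ± 2.08 CPM in fasted cKO, 17.0 ± 3.53 in fasted WT, 10.2 ± 1.47 in fed cKO and 28.3 ± 1.46 in fed WT. Of the PAF1 genes, Cdc73 (0.583) and Ctr9 (0.572) stood closest to Phf6, and Rtf1 (-0.477) was farthest.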

How the data were processed

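The samples were 20 SMART-seq v4 libraries (15 PCR cycles), 5 in each of 4 groups. The deposited count table holds read counts per gene. The deposited normalized signal divides each count by 1 size factor per library. Per the submitters' processing notes, the tools were Trimmomatic 0.36, HISAT2 2.1.0, featureCounts of Subread 1.6.2 and DESeq2 1.20.0. The annotation and strand setting were not given in the sources used here. Genes were tested here with edgeR 4.0.16 in R 4.3.3 (TMM, minimum count 10, minimum total 15, 4 group means, quasi-likelihood test), and p-values were adjusted by Benjamini-Hochberg over all 13237 tested genes, with a threshold of 0.05. Alternatives were DESeq2 size factors, DESeq2 1.42.0 itself, a robust fit, a replicate block, all genes unfiltered, genes with 1 CPM or more in at least 5 libraries, only the groups compared, either fasted set alone, GC and length offsets, and leaving out each library. The steps were tested on simulated data. Coordinates, lengths and overlaps came from GENCODE M21 on GRCm38. Members, lists and tests were chosen with earlier results of these data known. The named genes were the 7 members, up to 3 genes per list and comparison with the smallest adjusted p, the 5 most and 5 least like Phf6, its 3 nearest tested neighbours on each side, and Agrp and Npy. Names in the text are a subset. A count of 0 allows 3 counts, 0.221 to 0.353 CPM by library; this covers counting error only.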

Additional observations from a re-analysis of the deposited data

Results flagged for a closer look

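Phf6, the deleted gene, differed in its fasting response between genotypes, with an interaction of 0.90 on the log2 scale (edgeR adjusted p = 6.4e-07), as the test of the difference showed. Ctr9 did so too, with an interaction of 0.42 (edgeR adjusted p = 0.0109). Whole-gene counts do not tell an intact Phf6 transcript from a shortened one, so its value in cKO may not be a response of the intact gene. For Cdc73, fasted cKO replicate 2 had 45.8 CPM, with the next library at 35.7 CPM, and that gap, as a share of the range, was 0.732, above the critical value of 0.71 for 5 samples. It was the only such library in 28 groups examined, and chance marks about 5% of groups.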

How the results depend on the processing

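Phf6 calls for both genotype comparisons, the WT fasting fall and the interaction, the rises of Wdr61 and Rtf1 and the Ctr9 calls kept direction and significance in every alternative tried. The cause was not tested for those that did not. The Phf6 difference with fasting in cKO was -0.106 with fasted replicates 3 to 5 alone and ran from -0.268 to -0.163 without 1 library. With cKO against WT, the genes called were 2687 in fasted mice, 1352 with only those 2 groups and 1682 with fasted replicates 1 and 2 alone, and 1281 in fed mice, 2952 with 2 groups, 2584 with replicates 1 and 2 and 2520 with replicates 3 to 5. Of the PAF1 genes, 1 was called in fasted mice, against 0, 2 and 0 in 2 groups, replicates 1 and 2 and replicates 3 to 5 (0 to 1 without 1 library), and 1 in fed mice, against 3, 2 and 2 (1 to 2). The interaction gave 2291 genes, 3603 with replicates 3 to 5, and 1 PAF1 gene, against 3 with replicates 1 and 2 and 2 with replicates 3 to 5. Fasting in WT gave 5 PAF1 genes, 3 to 5 without 1 library and 4 to 6 under the other alternatives, which called 7601 to 8473 of all genes. Fasted cKO against fed WT gave 4, and 3 to 6 under those alternatives, which called 6922 to 7777 of all genes. Fed cKO against fasted WT gave 3, and 2 to 4 under them, with 7047 to 7769 of all genes.

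Directions reversed with fasted replicates 1 and 2 alone for fasting in cKO of Ctr9 (0.096) and Cdc73 (0.123), fasting in WT of Leo1 (-0.372), cKO against WT in fasted mice of Cdc73 (0.203), and fed cKO against fasted WT of Cdc73 (0.08) and Leo1 (0.232). With replicates 3 to 5 they reversed for cKO against WT in fasted mice of Leo1 (-0.019) and Rtf1 (-0.019) and the Rtf1 interaction (-0.044). With GC and length offsets, fitted on 12691 genes, Ctr9 fasting in cKO (0.009), Paf1 in fed mice (0.026) and Cdc73 in fed cKO against fasted WT (0.016) reversed, and with no filter Paf1 in fasted cKO against fed WT (-0.001). For list genes and neighbours of Phf6, either set alone was tried after seeing the data, and the changed calls of those named stand beside their results. Leaving out 1 library gave ranges of -0.006 to 0.058 (Paf1), -0.091 to 0.001 (Ctr9) and -0.135 to 0.015 (Cdc73) for fasting in cKO, -0.024 to 0.172 for Leo1 fasting in WT, -0.028 to 0.011 for Paf1 in fed mice, -0.069 to 0.035 for Cdc73 in fed cKO against fasted WT and -0.016 to 0.049 for Paf1 in fasted cKO against fed WT.

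Same-numbered deviations correlated at 0.0221 to 0.131 between the genotypes in fasted mice, all 5 above 0, where the sets of replicates 1 and 2 and 3 to 5 are shared by number, and at -0.045 to 0.0368 in the other comparisons. Not every pair exceeded 0.1, and the numbers were not taken as pairs. A replicate block gave 8090 genes for fasting in WT, against 8058, and changed no member's call.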
